A study of Mus musculus with 6 samples.

Results

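Cytokines and chemokines are the secreted proteins with which cells call in, feed and restrain cells of the immune system. The 43 genes described here encode 19 cytokines and 24 chemokines and were taken by name from the array's annotation. Every one of the 43 was represented among the 18193 genes that are named by a probe set of their own, with 72 probe sets in all. A probe set is a group of short oligonucleotides that are read together, and it can match more than 1 transcript. Each gene was represented by the probe set with the highest mean over all arrays. The rule names genes and uses no measured value, but the names were put together with earlier results of the same arrays known. None was removed for a low level.

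The arrays compared mouse embryonic fibroblasts (MEFs), connective tissue cells grown from mouse embryos, of 2 genotypes. Atxn3-KO MEFs lack Atxn3, the gene of a deubiquitinating enzyme whose human counterpart carries the repeat expansion of spinocerebellar ataxia type 3, and Atxn3-WT MEFs are the wild-type controls. RNA from 3 replicates of each was hybridized to Affymetrix mouse genome arrays. Both genotypes were maintained in DMEM with fetal bovine serum, and no cytokine, microbial product or drug is named for the RNA that was hybridized. The replicates are called biological, but the sources used here do not say whether separate embryos or cultures gave them, nor the age of the embryos, the strain or the kind of Atxn3 allele. The p-values therefore set the difference between the genotypes only against the scatter of these samples, and that scatter may be technical.

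Interleukins and colony-stimulating factors bind receptors on the cell surface that signal through kinases, whereas chemokines bind seven-transmembrane receptors and guide the migration of white blood cells. Fibroblasts are a known source of both. Many of these genes are barely transcribed at rest and are switched on within hours by NF-κB, C/EBP and AP-1 factors or by interferon signals, and their mRNAs are short-lived. Chemokine genes of one family lie side by side in the genome, so that neighbours with closely related sequences can be compared.

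In the values deposited, the 6 arrays were alike in distribution, with median log2 levels from 5.968 to 6.002, and pairs of arrays of 1 genotype correlated at 0.9985 to 0.9989 over all probe sets. The brighter Atxn3 probe set had log2 levels of 6.53, 6.81 and 6.66 in Atxn3-WT and 3.60, 3.43 and 3.73 in Atxn3-KO MEFs, as the labels require. Of 11 fibroblast markers, 10 lay above the 25th percentile of the arrays in both genotypes, and Lum was below it. They moved between the genotypes as well, with 3 higher and 5 lower in Atxn3-KO MEFs. Thy1, a surface protein of many fibroblasts, had log2 levels of 11.40, 11.37 and 11.39 in Atxn3-WT and 7.09, 7.19 and 7.25 in Atxn3-KO MEFs and fell by 4.21 on the log2 scale, while Dcn, a matrix proteoglycan, rose by 1.91. The part of these shifts in the results below was not tested. For 16 macrophage markers 0 passed in either direction (3 higher and 1 lower at an unadjusted p under 0.05 from limma), and the array means of the list lay between 5.03 and 5.09 in Atxn3-WT and between 5.03 and 5.10 in Atxn3-KO MEFs. Of 8 lymphocyte and 7 endothelial markers, 0 passed with limma, and 0 had an unadjusted p under 0.05. Among 7 epithelial markers Krt18 and Epcam were higher in Atxn3-KO MEFs, with log2 fold changes of 1.27 and 0.38, and the part of this in the results below was not tested. The lymphocyte probe sets, for genes that fibroblasts do not use, ranged in log2 level from 3.57 to 5.92. A level in that range does not by itself show expression, so the fold changes of genes that start there are not exact. Because these are bulk samples, a change in the share of cells that make a transcript and a change in transcript per cell cannot be told apart.

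More of the cytokine and chemokine genes were higher than lower in Atxn3-KO MEFs. At an adjusted p under 0.05 from limma, 18 of the 43 were higher and 4 were lower, and the remaining 21 did not pass. In the same test 17.1% of all genes were higher and 14.7% were lower (31.8% in either direction), against 41.9% and 9.30% of the 43. The median log2 fold change was 0.15 for the 43 genes and 0.0021 for all genes, so most members moved little and a few moved far. Past the thresholds of the study, which ask for 2-fold or more and an adjusted p no higher than 0.001, 9 of the 43 were higher and 0 were lower, where 1.28% of all genes were higher and 0.649% were lower. These 9 were Il1rn, Il6, Il7, Cxcl1, Cxcl5, Cxcl9, Cxcl12, Ccl5 and Ccl7. All Atxn3-KO arrays lay above all Atxn3-WT arrays for 20 of the 43 genes and below them for 6, where the same held for 25.3% and 23.9% of all genes (49.2% in either direction). Given how the names were put together, the counts describe these genes and are not independent evidence of a direction.

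**Figure D1:**
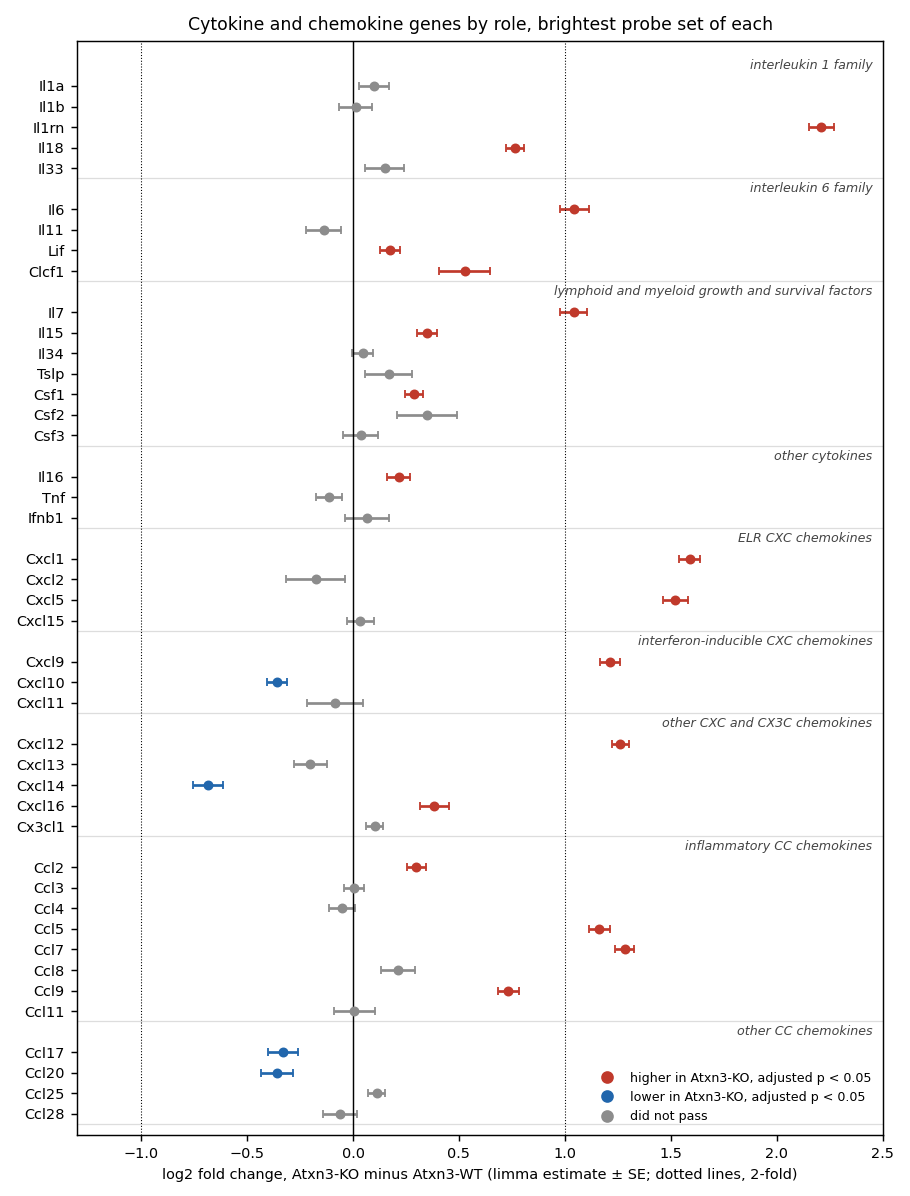
Difference in log2 level, Atxn3-KO minus Atxn3-WT (horizontal axis), of the 43 genes, grouped by role; points are limma estimates for the brightest probe set, error bars are standard errors, colours give the call at an adjusted p under 0.05 and dotted lines mark a 2-fold change. Red points reach 2.21 (Il1rn), while the lowest blue point is Cxcl14 at -0.69.

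Among the interleukin 1 family, the antagonist rose and the agonists Il1a and Il1b did not pass the test. Il1rn encodes the interleukin 1 receptor antagonist, which occupies the receptor without starting a signal. It had log2 levels of 5.43, 5.33 and 5.48 in Atxn3-WT and 7.62, 7.56 and 7.69 in Atxn3-KO MEFs. The Atxn3-KO arrays all lay above the Atxn3-WT arrays, and the log2 fold change was 2.21 (standard error, SE, 0.058, adjusted p = 9.83e-07), or 4.63-fold. This fold is not exact, since the Atxn3-WT levels lie in the range of the lymphocyte markers. Il18, a relative that drives interferon-γ production by lymphocytes, had log2 levels of 8.204, 8.189 and 8.231 in Atxn3-WT and 8.964, 9.003 and 8.947 in Atxn3-KO MEFs and rose by 0.76. The agonist Il1b had a log2 fold change of 0.01, with a 95% interval of -0.17 to 0.19, and its groups overlapped. Il1a, the other agonist, was below the 25th percentile in both genotypes. Il33, an alarm signal released from the nucleus of damaged cells, had 0.15 (95% interval -0.07 to 0.37).

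The 3 probe sets of Il1rn rose together but by unequal amounts. The second in brightness had log2 levels of 4.54, 4.86 and 4.96 in Atxn3-WT and 7.77, 7.95 and 7.87 in Atxn3-KO MEFs, giving a log2 fold change of 3.08 (SE 0.11). For the dimmest of the 3 the levels were 4.97, 5.30 and 5.30 against 6.27, 6.01 and 6.05, a log2 fold change of 0.92. Il1rn is known to have secreted and intracellular forms that start at different first exons. Which form each probe set reads was not determined here.

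Of the interleukin 6 family, whose members share the gp130 receptor chain, Il6, Clcf1 and Lif were higher and Il11 did not pass. Il6, a cytokine of inflammation and the acute phase response, had log2 levels of 5.53, 5.53 and 5.42 in Atxn3-WT and 6.46, 6.48 and 6.67 in Atxn3-KO MEFs. The groups did not overlap, and the log2 fold change was 1.04 (SE 0.069, adjusted p = 6.25e-05). All of its Atxn3-WT values lie in the range of the lymphocyte markers. Clcf1, a neurotrophic and B cell-stimulating cytokine, was higher for each of its 3 probe sets, with log2 fold changes of 0.53, 0.37 and 0.27. Lif, leukemia inhibitory factor, rose by 0.17 on the log2 scale for the brighter probe set, and its dimmer probe set had 0.03 and did not pass. Il11 had log2 levels of 6.25, 6.23 and 6.23 in Atxn3-WT and 5.90, 6.17 and 6.22 in Atxn3-KO MEFs. These groups were apart, but the log2 fold change of -0.14 had an adjusted p of 0.282.

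Among growth and survival factors of lymphoid and myeloid cells, Il7, Il15 and Csf1 were higher, and the inducible colony-stimulating factors did not pass. Il7, on which developing lymphocytes depend, had log2 levels of 7.61, 7.61 and 7.64 in Atxn3-WT and 8.58, 8.61 and 8.78 in Atxn3-KO MEFs. This was a log2 fold change of 1.04 (SE 0.062, adjusted p = 3.83e-05), and its dimmer probe set had 0.73. Il15, a survival factor of NK and memory T cells, rose by 0.35 on the log2 scale and Csf1, the macrophage growth factor, by 0.29. Only the 2 brighter of the 4 Csf1 probe sets passed, with 0.29 each, while the others had 0.12 and 0.05. Il34, the other ligand of the Csf1 receptor, had 0.05 (95% interval -0.07 to 0.16). Csf2, the granulocyte-macrophage factor, had log2 levels of 5.31, 5.09 and 5.03 in Atxn3-WT and 5.23, 5.80 and 5.45 in Atxn3-KO MEFs, so the groups overlapped, and its log2 fold change of 0.35 had an adjusted p of 0.125. Csf3 had 0.04, and Tslp, an epithelial alarm cytokine, had 0.17 (95% interval -0.09 to 0.43). Levels of Il34, Csf2 and Csf3 lay in the range of the lymphocyte markers on every array, so their fold changes say little about the transcripts.

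Tnf and Ifnb1, which head many inflammatory and antiviral responses, did not pass. Tnf had log2 levels of 5.49, 5.57 and 5.63 in Atxn3-WT and 5.53, 5.35 and 5.46 in Atxn3-KO MEFs, giving a log2 fold change of -0.11 with a 95% interval of -0.26 to 0.03. Ifnb1, interferon β, had 0.07 (95% interval -0.18 to 0.31). Levels of both lay in the range of the lymphocyte markers on every array. Il16, a chemoattractant for CD4 T cells, had levels of 5.44, 5.50 and 5.59 against 5.78, 5.72 and 5.68 and a log2 fold change of 0.22 (adjusted p = 0.0251). These levels also lie in the range of the lymphocyte markers on every array. The other 3 Il16 probe sets did not pass, and the dimmest had -0.17. The Il16 call was lost when any of 4 arrays was left out, Atxn3-WT replicates 1 and 2 and Atxn3-KO replicates 1 and 2, with adjusted p-values of 0.0695 to 0.0802.

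**Figure D2:**
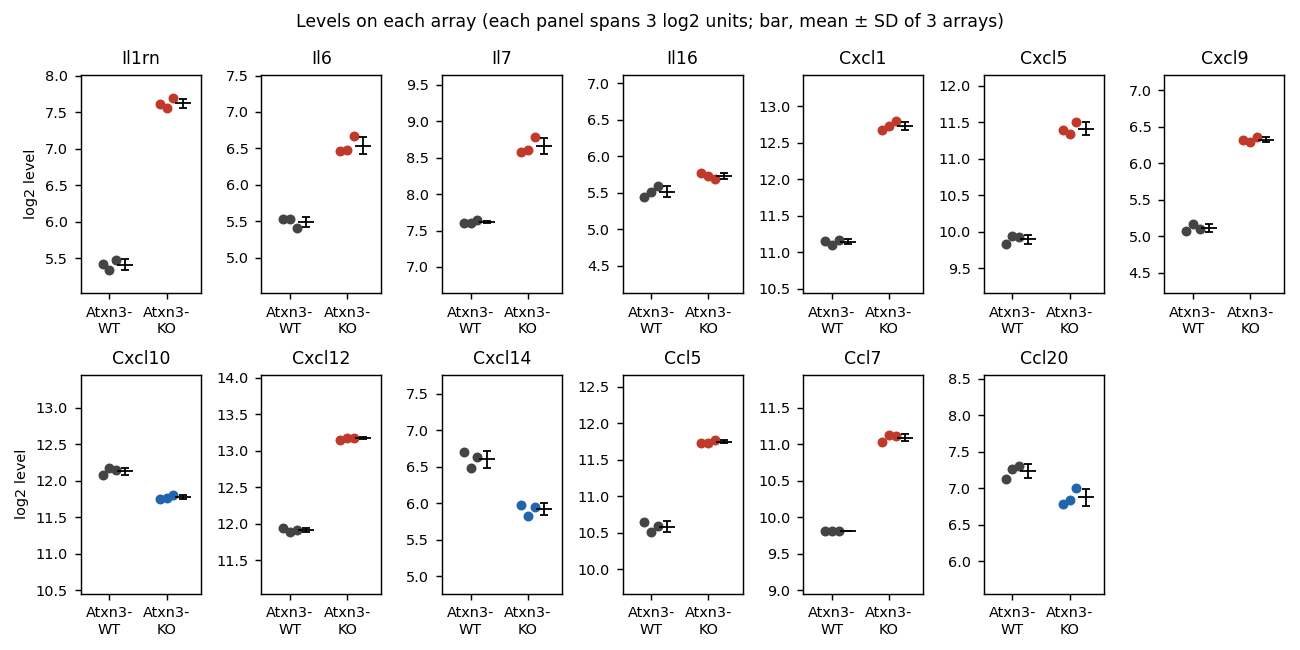
Log2 levels on each of the 6 arrays (vertical axes, each spanning 3 log2 units) for the members past the thresholds of the study or with the largest change of their role group; points are single arrays and bars are the mean ± SD of 3 arrays. The Atxn3-KO points lie above the Atxn3-WT points for 10 genes and below them for Cxcl10, Cxcl14 and Ccl20, and Il16 shows the narrowest gap.

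Among the 24 chemokines of the 43, the largest rises were those of Cxcl1 and Cxcl5, neutrophil attractants that signal through CXCR2 and carry the amino acids ELR before their first cysteines. Cxcl1 had log2 levels of 11.15, 11.10 and 11.16 in Atxn3-WT and 12.67, 12.72 and 12.79 in Atxn3-KO MEFs. The log2 fold change was 1.59 (SE 0.049, adjusted p = 2.07e-06), or 3.01-fold, and its other probe sets had 1.65 and 1.42. Cxcl5 had levels of 9.83, 9.94 and 9.92 against 11.40, 11.34 and 11.51, a log2 fold change of 1.52 (SE 0.060, adjusted p = 5.42e-06). Both rises far exceeded the spread between replicates. Cxcl2, a close relative of Cxcl1, had levels of 4.82, 4.87 and 4.70 in Atxn3-WT and 4.39, 4.51 and 4.95 in Atxn3-KO MEFs. Its groups overlapped and its log2 fold change was -0.18 (95% interval -0.50 to 0.15). These levels lie in the range of the lymphocyte markers, so the interval says little about the Cxcl2 transcript. Cxcl15, a chemokine best known from lung, was below the 25th percentile in both genotypes.

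Cxcl9, Cxcl10 and Cxcl11, the interferon-inducible ligands of CXCR3 on T cells, did not move as a group. Cxcl9 had log2 levels of 5.07, 5.17 and 5.10 in Atxn3-WT and 6.32, 6.29 and 6.36 in Atxn3-KO MEFs. Its log2 fold change was 1.21 (SE 0.047, adjusted p = 5.30e-06), from Atxn3-WT levels in the range of the lymphocyte markers. A dimmer Cxcl9 probe set had 0.23 (adjusted p = 0.0671), and the mean of both gave 0.72. Cxcl10 moved the opposite way, with 12.08, 12.18 and 12.14 in Atxn3-WT and 11.75, 11.77 and 11.80 in Atxn3-KO MEFs. Its groups did not overlap, and the log2 fold change was -0.36 (SE 0.046, adjusted p = 0.00129). Cxcl11 had -0.09 (95% interval -0.40 to 0.23) and is listed by RefSeq as a transcribed pseudogene in the reference strain.

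The stromal chemokines also moved both ways. Cxcl12, which holds blood stem cells and lymphocytes in stromal niches through CXCR4, had log2 levels of 11.94, 11.88 and 11.91 in Atxn3-WT and 13.15, 13.18 and 13.18 in Atxn3-KO MEFs. The log2 fold change was 1.26 (SE 0.041, adjusted p = 2.52e-06), or 2.40-fold. A second probe set had 1.31, whereas the third had 4.22, 4.30 and 4.28 against 4.39, 4.20 and 4.40, a log2 fold change of 0.06 that did not pass. Cxcl14, a chemokine of skin and other epithelia, fell on both of its probe sets. Its levels were 6.70, 6.48 and 6.63 in Atxn3-WT and 5.98, 5.83 and 5.95 in Atxn3-KO MEFs on the brighter, a log2 fold change of -0.69 (SE 0.071, adjusted p = 5.12e-04). On the dimmer they were 5.29, 5.13 and 5.43 against 4.17, 3.88 and 4.09, a log2 fold change of -1.24. The levels on the dimmer probe set all lie in the range of the lymphocyte markers, so that fold change is not exact. Cxcl16, made as a membrane-bound ligand of CXCR6, was higher on both probe sets, with 0.38 and 0.56. Cx3cl1, the other membrane-bound chemokine, had 0.10 on the brightest probe set (adjusted p = 0.114), with its groups apart, and its second probe set passed with 0.25 (adjusted p = 0.0473). Cxcl13, which draws B cells into follicles, had -0.20 (adjusted p = 0.103).

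**Figure D3:**
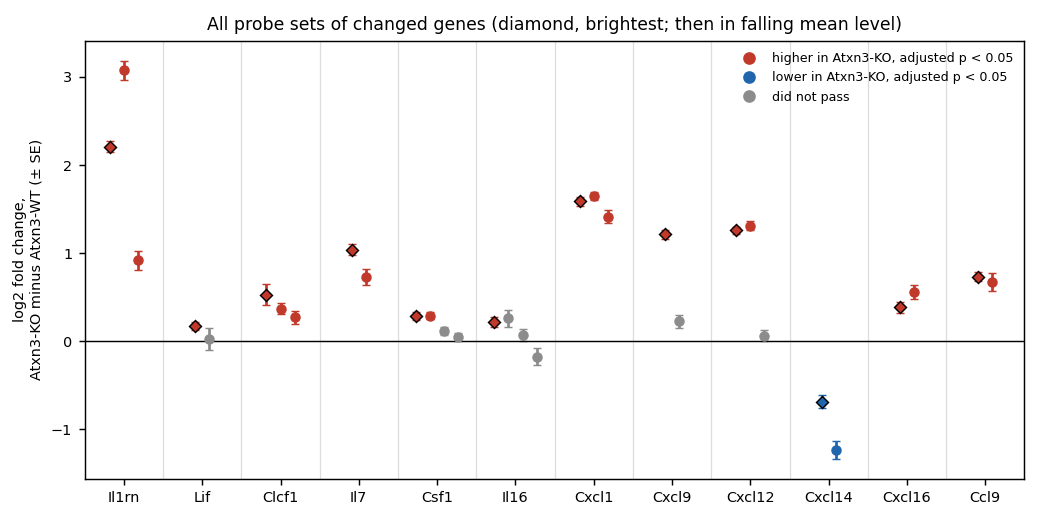
Log2 fold changes (vertical axis) of every probe set of the 12 genes that passed the test and have more than 1 probe set; diamonds are the brightest probe set, circles the others in falling mean level, and error bars are standard errors. Il1rn spreads from 0.92 to 3.08, the dim probe sets of Cxcl9 and Cxcl12 lie at 0.23 and 0.06, and both Cxcl14 probe sets lie below 0.

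Over the 22 genes that passed, 41 of 42 probe sets had the sign of the brightest one, and 12 of the 20 other probe sets passed in the same direction. The exception in sign was the dimmest Il16 probe set.

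Of 8 inflammatory CC chemokines, which draw monocytes, T cells and eosinophils, 4 were higher and 0 were lower (5 and 0 at an unadjusted p under 0.05 from limma). Over all genes, 17.1% were higher and 14.7% were lower. Ccl7, a monocyte attractant, had log2 levels of 9.81, 9.81 and 9.82 in Atxn3-WT and 11.03, 11.13 and 11.11 in Atxn3-KO MEFs, giving a log2 fold change of 1.28 (SE 0.045, adjusted p = 3.40e-06). Ccl5, which acts on T cells and monocytes, had levels of 10.65, 10.51 and 10.59 against 11.74, 11.74 and 11.77. Its log2 fold change was 1.16 (SE 0.051, adjusted p = 8.47e-06), or 2.24-fold. Both genes were separated between the genotypes by far more than the spread of either group. Ccl9, a myeloid cell attractant found in rodents, rose by 0.73 and 0.67 on its 2 probe sets, from levels of 5.45 to 5.50 for the brighter in Atxn3-WT MEFs. Ccl2, the main attractant of inflammatory monocytes, had levels of 12.10, 12.09 and 12.11 against 12.35, 12.41 and 12.44 and rose by only 0.30. Ccl3 and Ccl11 were below the 25th percentile in both genotypes, Ccl4 had a log2 fold change of -0.05, and Ccl8 had 0.21 (adjusted p = 0.0971).

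The remaining CC chemokines held 2 of the 4 genes that fell. Ccl20, the ligand of CCR6, had log2 levels of 7.127, 7.263 and 7.305 in Atxn3-WT and 6.784, 6.834 and 7.004 in Atxn3-KO MEFs, giving a log2 fold change of -0.36 (SE 0.074, adjusted p = 0.0111). Ccl17, a ligand of CCR4 on helper and regulatory T cells, had levels of 7.24, 7.12 and 7.20 against 6.96, 6.72 and 6.88, a log2 fold change of -0.33 (adjusted p = 0.0116). In both the groups were apart, by narrow gaps. Ccl25 and Ccl28, chemokines of the gut and other mucosae, had 0.11 and -0.06 and did not pass. Tested against a change of 1.2-fold, Cxcl14 was the only member that remained lower, and 11 remained higher.

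The 21 members that did not pass had log2 fold changes of -0.20 to 0.35, and the 95% intervals of all of them lay between -0.50 and 0.69. For 5 of them the unadjusted p was under 0.05. A change of 2-fold lies outside these intervals, but smaller changes do not, and for genes at background levels an interval says little about the transcript.

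Neighbouring chemokine genes had unequal fold changes, but most of those near 0 had levels no higher than those of the lymphocyte markers, where a value near 0 does not show that the transcript was unchanged. This holds for Pf4, Cxcl3, Cxcl15, Cxcl2, Ccl11, Ccl12, Ccl8, Ccl1, Ccl6 and Ccl3. In the RefSeq order of the mouse genome, Cxcl5, Ppbp, Pf4, Cxcl3, Cxcl15, Cxcl1 and Cxcl2 follow one another on chromosome 5. The genes with large rises, Cxcl5, Ppbp and Cxcl1 with log2 fold changes of 1.52, 1.57 and 1.59, are separated by Pf4, Cxcl3 and Cxcl15 with -0.05, 0.16 and 0.04. Ppbp, which encodes the platelet basic protein and is not among the 43, went from 4.02, 4.17 and 3.99 to 5.45, 5.80 and 5.64, so it stayed at low levels. Cxcl3 passed the test at levels of 3.20 to 3.42, below the 25th percentile throughout. Cxcl9, Cxcl10 and Cxcl11 form a second group on chromosome 5, with 1 other protein-coding gene among them, and had 1.21, -0.36 and -0.09. On chromosome 11, Ccl2 and Ccl7 (0.30 and 1.28) are followed by Ccl11, Ccl12, Ccl8 and Ccl1, of which none passed with limma. Ccl8 had an unadjusted p under 0.05. Further along, Ccl5 and Ccl9 (1.16 and 0.73) are followed by Ccl6, Ccl3 and Ccl4 with 0.02, 0.01 and -0.05. Probe sequences were not examined, so how far probe sets of such related genes share signal is not known.

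**Figure D4:**
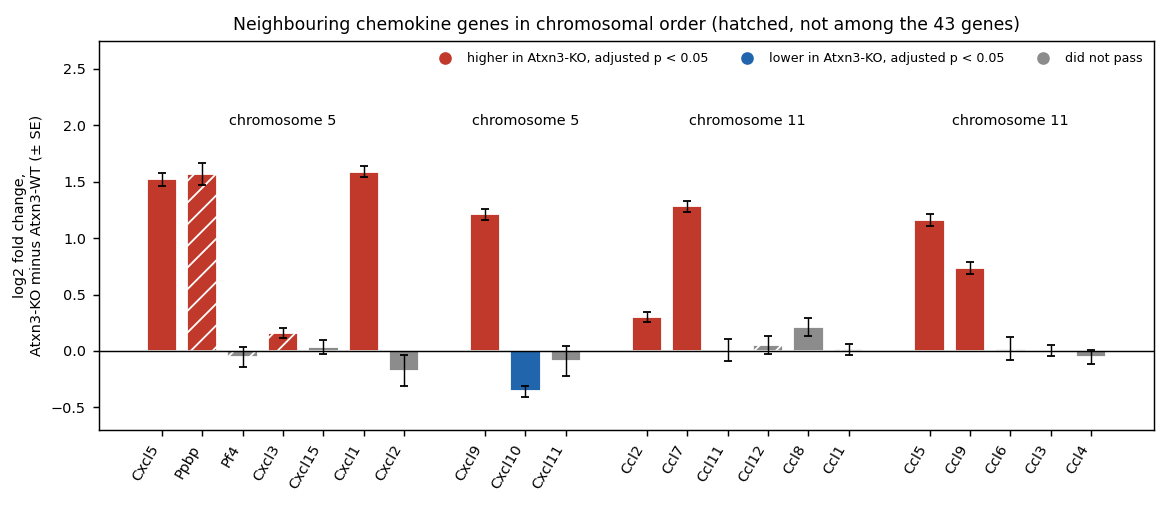
Differences in log2 level, Atxn3-KO minus Atxn3-WT (vertical axis, bars with standard errors) of chemokine genes in chromosomal order, evenly spaced, for 2 groups of neighbours on chromosome 5 and 2 on chromosome 11; hatched bars are genes outside the 43. Cxcl1 at 1.59 stands next to Cxcl2 at -0.18, and Cxcl9 at 1.21 beside Cxcl10 at -0.36.

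The sequences before the start sites of Il6 and of neighbours with unequal fold changes are shown, to set related promoters side by side. They come from a table of RefSeq promoters on GRCm38.p6 that was used here and holds 29 of the 43 genes. Il7, Cxcl5, Ccl5 and Ccl7, which passed the thresholds of the study, are not in that table, and their promoters were not analysed here. Capitals mark NF-κB motifs (GGGA, any base and TTTCC, or the shorter GGGANTTCC), the interferon-stimulated response element (ISRE: TTTC, any 2 bases and TTTC) and the AP-1 motif TGANTCA on either strand. None of the 4 motifs overlaps another where shown, and all sequences end at the base before the start site.
Cxcl1, chr5:90891125-90891244, plus strand: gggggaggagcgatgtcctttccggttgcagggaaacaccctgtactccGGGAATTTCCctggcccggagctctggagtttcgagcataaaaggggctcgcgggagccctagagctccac
Cxcl2, chr5:90903779-90903898, plus strand: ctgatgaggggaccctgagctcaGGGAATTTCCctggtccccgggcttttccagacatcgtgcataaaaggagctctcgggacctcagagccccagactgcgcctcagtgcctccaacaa
Il6, chr5:30012994-30013113, plus strand: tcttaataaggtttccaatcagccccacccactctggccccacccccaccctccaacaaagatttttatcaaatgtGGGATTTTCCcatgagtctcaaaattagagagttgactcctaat
Cxcl9, chr5:92328080-92328199, minus strand: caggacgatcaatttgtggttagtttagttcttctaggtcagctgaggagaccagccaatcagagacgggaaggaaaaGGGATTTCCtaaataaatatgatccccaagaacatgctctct
Cxcl10, chr5:92348890-92349109, minus strand: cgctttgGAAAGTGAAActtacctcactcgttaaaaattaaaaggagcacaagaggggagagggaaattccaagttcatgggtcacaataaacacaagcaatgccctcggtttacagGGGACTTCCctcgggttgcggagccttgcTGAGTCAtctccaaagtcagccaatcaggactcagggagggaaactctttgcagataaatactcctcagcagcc

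The same NF-κB motif stands before Cxcl1, which rose, and before Cxcl2, which had low levels and did not pass. Its letters begin 71 bases before the Cxcl1 start and 97 before the Cxcl2 start, within a run of 14 bases, GGGAATTTCCCTGG, that both promoters hold. Some genes have more than 1 promoter in the table, and the 29 genes have 36. Within 250 bases before the start, the longer NF-κB motif occurred in 0.356% of all 32851 promoters and in 5 of the 36. These were promoters of 5 of the 29 genes, Il6, Csf1, Il16, Cxcl1 and Cxcl2. The shorter one occurred in 1.43% of promoters and before Cxcl9 and Cxcl10. An ISRE was found before Cxcl10 and Cxcl14, both of which fell, and in 2.98% of promoters. The AP-1 motif, at 6.75% of promoters, was found in 8 of the 36 promoters and for 8 of the 29 genes. Of these, Il1rn, Il6, Lif, Il16 and Ccl9 were higher, Cxcl10 was lower, and Il1a and Il11 did not pass. A match describes these letters only and was not tested as a binding site.

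Receptors for the cytokines were measured on the same arrays. Of 22 cytokine receptor genes, 9 passed as higher and 3 as lower, where 17.1% and 14.7% of all genes did. Tnfrsf1b, the second TNF receptor, had log2 levels of 8.14, 8.08 and 8.17 in Atxn3-WT and 9.29, 9.22 and 9.31 in Atxn3-KO MEFs, giving a log2 fold change of 1.15. Csf2ra, the ligand-binding chain for the Csf2 product, had 1.64 on its brighter probe set and 0.06 (adjusted p = 0.712) on the other, and Csf2 itself did not pass. Of the receptors of the interleukin 6 family, Il6ra (0.49), Osmr (0.55) and the shared chain Il6st (0.20) were higher on their brightest probe sets. Lifr had 0.10. The dimmer Il6ra probe set had 0.04 and did not pass, and not all dimmer probe sets of Osmr and Il6st passed. Receptors of the interleukin 1 family were split. The signalling chains Il1r1 and Il1rap had 0.22 and 0.36, and the decoy receptor Il1r2 fell by 0.47, with levels of 6.23, 6.08 and 6.07 against 5.59, 5.65 and 5.73. Il18rap, an accessory chain for the Il18 product, fell by 0.54.

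Few chemokine receptor genes passed. Of 19 measured, 7 lay below the 25th percentile in both genotypes, Cxcr2 and Cxcr4 among them. Of the 19, 1 was higher and 0 were lower (3 and 0 at an unadjusted p under 0.05 from limma), where 17.1% and 14.7% of all genes were. The 1 was Ackr4, an atypical receptor that takes up chemokines, with a log2 fold change of 0.25 on its brightest probe set. Its second probe set passed with 0.43, and the dimmest had -0.06 and did not pass. Ackr3, the atypical receptor of Cxcl12, had -0.16 and did not pass.

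Of 12 genes listed for the processing and release of cytokines, 0 were higher and 4 were lower. At an unadjusted p under 0.05 from limma the counts were 2 and 5. Of all genes, 17.1% were higher and 14.7% were lower. The list also holds Il18bp, a secreted binding protein that restrains its cytokine, and Sigirr, an inhibitory receptor. Neither of these processes or releases a cytokine. The 2 genes higher only at the unadjusted p were Pycard and Il18bp, with log2 fold changes of 0.24 and 0.25. For Pycard this was the brightest of 3 probe sets, and its Atxn3-WT mean lay below the 25th percentile. The other Pycard probe sets had -0.04 and -0.13, the latter with an unadjusted p of 0.042 from limma. Casp4 encodes mouse caspase-11, which senses bacterial lipopolysaccharide in the cytosol. It had log2 levels of 8.86, 8.82 and 8.92 in Atxn3-WT and 7.61, 7.56 and 7.60 in Atxn3-KO MEFs, giving a log2 fold change of -1.28 (SE 0.045). Its substrate Gsdmd, which forms the pore through which interleukin 1 family members leave the cell, fell by 0.51. Adam17, the protease that sheds TNF, and Rhbdf1, a rhomboid-like protein that helps Adam17 mature, fell by 0.28 and 0.39. Casp1, which matures the products of Il1b and Il18, was below the 25th percentile in both genotypes.

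Among 20 regulators of cytokine transcription and mRNA decay, 11 were higher and 1 was lower, where 17.1% and 14.7% of all genes were. Irf7, an interferon-regulated transcription factor, went from log2 levels of 8.80, 8.62 and 8.63 to 9.96, 10.03 and 10.15, a log2 fold change of 1.36. Cebpd and Cebpb, C/EBP factors of the acute phase response, had 0.70 and 0.38. Zfp36, which marks cytokine mRNAs for decay, had 0.80. Tnfaip3 and Nfkbia, which restrain NF-κB, were higher with 0.38 and 0.22, whereas the related inhibitors Nfkbib and Nfkbie had -0.14 and 0.14 and Socs3, an inhibitor of cytokine signalling, had 0.06, and these did not pass. Bcl3, a nuclear IκB protein, had 0.51. Of the NF-κB subunit genes listed, Rela, Relb, Rel and Nfkb2 had -0.08, -0.05, 0.09 and 0.00 and did not pass. The subunit gene Nfkb1 is not described here. Irf1 was the gene that fell, with -0.22.

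Other cytokine and chemokine genes, outside the 43, were counted in the same way. Of 31 measured, 3 were higher and 1 was lower, where 17.1% and 14.7% of all genes were. In both genotypes 11 of the 31 were below the 25th percentile. Apart from Ppbp, those that passed were Kitl, the ligand of the Kit receptor, with a log2 fold change of -0.33, and Cxcl3 and Ccl27a with 0.16 and 0.17.

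**Figure D5:**
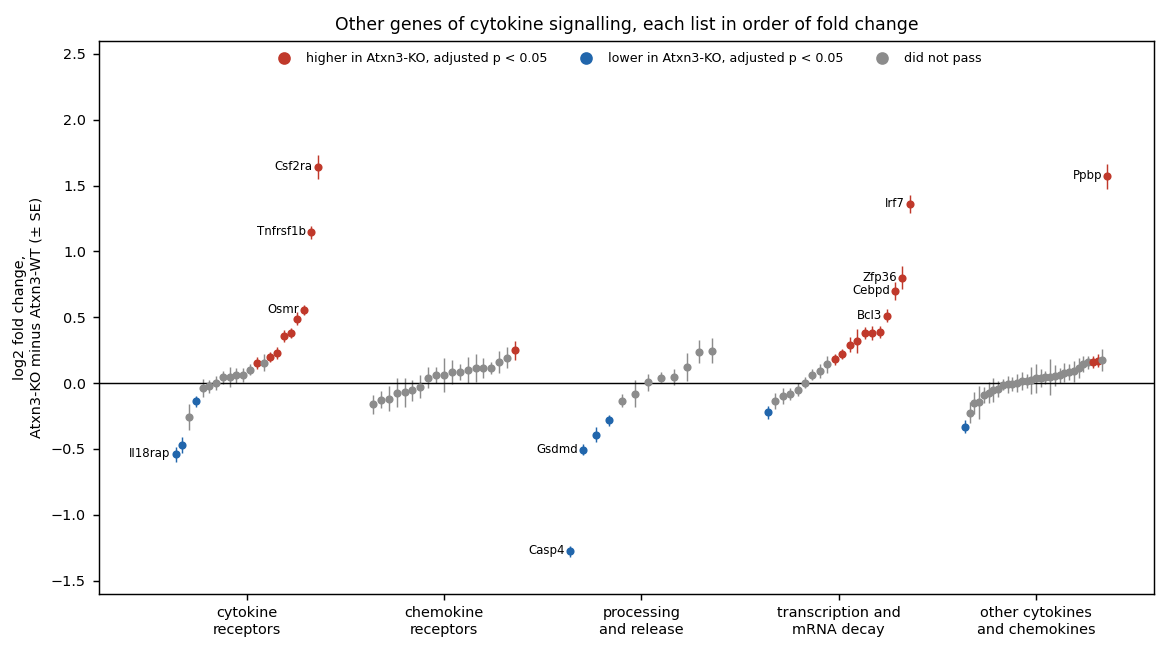
Differences in log2 level, Atxn3-KO minus Atxn3-WT (vertical axis) of the measured genes of 5 lists around the cytokines, each list sorted from lowest to highest; points are limma estimates and lines are standard errors. Csf2ra, Ppbp, Irf7 and Tnfrsf1b lie above 1, Casp4 lies at -1.28, and most chemokine receptors lie near 0.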

How the data were processed

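Expression was profiled on 6 Affymetrix mouse genome arrays, 3 for each genotype by the labels. The deposited values are log2 values that the authors normalized by robust multi-array average (RMA), which corrects background, equalizes the distributions of the arrays and summarizes the probes of a probe set. Equalizing would hide a change shared by all transcripts. RMA and limma are named, without versions, in the study's methods and the submitters' processing notes. Scanned intensities and scan dates were not used here.

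From these values, limma 3.58.1 in R 4.3.3 fitted Atxn3-KO minus Atxn3-WT with lmFit and eBayes and equal array weights, since the study's weights are not given in the sources used here. Benjamini-Hochberg adjustment covered 45037 probe sets, leaving out 64 controls and with no filter on low values. Probe sets naming several genes were left out. Of 34945 probe sets naming 1 gene, 34741 matched RefSeq (GRCm38.p6), and 0 changed symbol. The array number limits precision.

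Members and lists were chosen with earlier results of these data known. Levels on every array are given for Atxn3, for members past the study's thresholds, for members with probe sets that disagree by 1 or more on the log2 scale and for the member with the largest change of its role group in each direction; from each other list, up to 4 genes that passed were named by size. Further genes shown with levels, and further genes named from those lists, were chosen after their values were seen. Some listed genes have no probe set of their own in the annotation used (15 of 119 outside the 43). The fit was checked on simulated data. Alternatives were array weights, the replicate number as a block, other variance models, further normalization, a level filter, other probe set rules, a test against 1.2-fold and leaving out each array.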

Additional observations from a re-analysis of the deposited data

How the results depend on the processing

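The number of members called higher, 18, ranged from 15 to 19 when each array was left out in turn, and the number called lower from 4 to 5. Of all 45037 probe sets, 5627 were higher and 6069 lower in the main fit. With an array left out, 4362 to 4869 of them were higher and 4466 to 5142 lower. Over the same fits 7 to 9 members were higher past the study's thresholds, and the median log2 fold change lay between 0.10 and 0.17. Tested against a 1.2-fold change, 11 members were higher and 1 was lower, 9 and 3 genes of the other lists were called, and 1476 and 1016 of all probe sets. This test asks for a larger change by construction. Without probe sets under the median level, 27 members were left, with a median of 0.29. That filter used the mean over all arrays. Il1rn and Il6 therefore stayed through their Atxn3-KO levels and Cxcl14 through its Atxn3-WT levels, so this median depends in part on the changes themselves. With the most variable probe set of each gene, 1 member was lower past the study's thresholds, Cxcl14 on its dimmer probe set. With the mean of all probe sets, 6 were higher past them. Of 219 recomputed log2 fold changes of the 13 members shown by array, 0 reversed, and 11 lost their call, of which 9 were of Il16 and the others, for Cxcl10 and Ccl20, came from the test against 1.2-fold. The labels do not say whether the replicate numbers pair the samples. Deviations of same-numbered arrays correlated at -0.036 to 0.021, and those of differently numbered arrays at -0.023 to 0.048. These values show no sign of pairing but cannot settle how the samples were handled. With the replicate number as a block, 17 members were higher, 4 were lower and 8 were higher past the study's thresholds. Of all probe sets, 4814 were higher and 4987 lower in that fit. Among the 13 members the block changed the call of Il16 (adjusted p = 0.0693 from limma). No alternative moved the median of all probe sets by more than 0.1. Signal near background limits what can be said of the dim genes.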
